A study of Mus musculus with 2 samples.

Results

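The insulin-like growth factor system was examined in small intestinal tissue of mice that carry an IL-9 transgene: the ligands Igf1 and Igf2, the receptor Igf1r and the binding proteins Igfbp2 to Igfbp7. These are 9 of 18194 genes with a probe set (a group of short probes against 1 transcript) that carries no other symbol. All their probe sets were taken, 26 of the 34958 with 1 symbol and of 45101 on the array. The genes were chosen by name and not ranked by their values, but earlier results of these data were known at that time. The compared samples were small intestine of IL-9 transgenic mice on the BALB/c background and small intestine of wild-type (WT) mice on the same background, both 6 to 8 weeks old and untreated. Each array carried RNA from 1 pool of 3 mice. IL-9 is a type 2 cytokine that promotes mast cell growth, and the study asks about mast cells, intestinal permeability and sensitivity to oral antigen. The labels do not name the promoter that drives the transgene or the cells that express it.

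IGF1 and IGF2 are small secreted peptides that signal through the receptor tyrosine kinase IGF1R to the PI3K-AKT and MAP kinase pathways. Binding proteins hold most IGF outside the cell, prolong its life and either limit or promote its access to the receptor. In the gut, Igf1 is made largely by mesenchymal cells and macrophages beneath the epithelium, and it supports crypt cell growth and the growth of smooth muscle. Growth hormone induces Igf1 through JAK2 and STAT5, which also switch on the feedback inhibitors Cish and Socs2.

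With 1 array per group there is no estimate of the spread between mice, and every difference below has no replicate check and no p-value. Differences are log2(intensity + 1) of the transgenic pool minus the WT pool, and a difference is counted when it passes 1.5-fold (0.58 on the log2 scale) or 2-fold. The yardstick within the arrays is how far probe sets of the same gene differ from each other, with an SD of 0.23 on the log2 scale over 4965 genes. Of all 34958 probe sets with 1 symbol, 95% differed by between -0.47 and 0.48. Among the 19994 of them past the expression filter described below, the range that holds 95% was wider, from -0.52 to 0.54. The arrays had median intensities of 78.7 in the transgenic pool against 78.3 in the WT pool. The only Il9 probe set read 62.2 in the transgenic pool against 71.6 in the WT pool, so it does not show the transgene, and the directions rest on the labels. Markers of small intestinal epithelium were bright in both pools: Apoa1 read 24147 in the transgenic pool against 25799 in the WT pool, and Fabp1 read 21387 in the transgenic pool against 19741 in the WT pool. The ratio of 3′ to 5′ signal, a sign of RNA integrity, was 1.33 in the transgenic pool against 1.61 in the WT pool for actin, and for Gapdh 1.08 in the transgenic pool against 1.22 in the WT pool. In bulk tissue, more cells of a type and more RNA per cell cannot be told apart.

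Igf1 and Igfbp3 were higher in the transgenic pool on each of their probe sets, while Igfbp5 and Igfbp6 read lower by less than 1.5-fold. Of the 26 probe sets, 6 were higher by 1.5-fold, against a background of 1.3% of all probe sets with 1 symbol, and 0 were lower, against 1.13%. All 6 belonged to Igf1 (4 probe sets) and Igfbp3 (2 probe sets). By 2-fold, 1 probe set was higher, against 0.306% of all probe sets, and 0 were lower, against 0.112%. The median of the 26 differences was 0.02 and that of all probe sets with 1 symbol was also 0.02, with 13 members above 0 and 13 below. The expression filter (the higher of both log2 values at or above the array median) was passed by 19 of the 26, of which 18 passed on both arrays. For 1 Igf1 probe set, only the transgenic pool lay above the filter.

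The upstream sequence of the members with the largest differences in each direction is shown so that the start regions of the higher and the lower genes can be read side by side. Each is the 250 bases before a transcript start in RefSeq (GRCm38.p6), 5′ to 3′ on the strand of the gene, with motif matches on either strand in capitals. The motifs searched were the TATA box (TATAAA), the box with the letters CCAAT, the SP1-type motif GGGCGG and the core pattern of sites bound by STAT proteins, TTCNNNGAA.
Igf1: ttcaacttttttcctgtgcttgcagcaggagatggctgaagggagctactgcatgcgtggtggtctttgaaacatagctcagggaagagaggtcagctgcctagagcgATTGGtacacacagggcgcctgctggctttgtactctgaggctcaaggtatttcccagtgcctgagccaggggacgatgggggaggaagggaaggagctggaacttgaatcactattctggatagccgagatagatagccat
Igfbp3: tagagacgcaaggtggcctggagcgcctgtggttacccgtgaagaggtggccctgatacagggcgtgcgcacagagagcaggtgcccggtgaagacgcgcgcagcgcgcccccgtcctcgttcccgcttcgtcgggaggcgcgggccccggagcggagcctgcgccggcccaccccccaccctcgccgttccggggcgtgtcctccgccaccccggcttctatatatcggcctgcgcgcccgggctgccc
Igfbp5: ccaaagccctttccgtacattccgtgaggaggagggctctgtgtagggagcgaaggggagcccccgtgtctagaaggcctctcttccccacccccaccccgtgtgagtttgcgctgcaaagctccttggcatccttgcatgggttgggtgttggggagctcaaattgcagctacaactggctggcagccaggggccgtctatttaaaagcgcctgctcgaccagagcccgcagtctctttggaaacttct
Igfbp6: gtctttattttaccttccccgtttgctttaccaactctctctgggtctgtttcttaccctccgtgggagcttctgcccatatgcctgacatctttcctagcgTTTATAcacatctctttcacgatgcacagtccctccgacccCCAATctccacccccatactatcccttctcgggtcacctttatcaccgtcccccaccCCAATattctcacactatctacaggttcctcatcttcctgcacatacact
The Igf1 window lies on the plus strand at chr10:87860861-87861110, inside the annotated spans of Igf1 and of the non-coding gene Igf1os. The Igfbp3 window lies on the minus strand at chr11:7213924-7214173, inside the Igfbp3 span. The Igfbp5 window, on the minus strand at chr1:72874866-72875115, and the Igfbp6 window, on the plus strand at chr15:102143936-102144185, overlap no annotated gene. Igf1 held 1 CCAAT match (printed as its reverse complement) that begins 142 bases before the start. Igfbp6 held CCAAT matches at 107 and 50 bases and 1 TATAAA match at 148 bases before the start, printed as its reverse complement. The windows of Igfbp3 and Igfbp5 held no match to any of the 4 motifs, and no STAT-type match was found in any window shown. Among 32851 such windows of all genes, 12.4% held the TATA box, 33.8% the CCAAT box, 32.7% the SP1-type motif and 7.02% the STAT-type pattern. The G and C content was 52.8% for Igf1, 73.2% for Igfbp3, 58.8% for Igfbp5 and 49.6% for Igfbp6.

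Igf1, the main growth-promoting ligand after birth, was higher in the transgenic pool on all 4 of its probe sets. Probe set 1437401_at read 378 in the transgenic pool against 166 in the WT pool, 2.27-fold higher. Probe set 1434413_at read 229 in the transgenic pool against 116 in the WT pool, 1.97-fold higher. Both lay far outside the range of most probe sets: 83 of the 34958 were higher by at least as much as the first and 112 by at least as much as the other. Probe set 1419519_at read 120 in the transgenic pool against 72.7 in the WT pool, 1.64-fold higher. Probe set 1452014_a_at, which can match several transcripts of the gene, read 160 in the transgenic pool against 102 in the WT pool, 1.57-fold higher. The mean log2 difference was 0.88 ± 0.25 (SD over n = 4 probe sets on the same arrays, which are not replicates), with a lowest value of 0.65. The 2 probe sets with the higher signal gave the 2 larger differences. WT signal of probe set 1419519_at was under the filter, at an intensity of 78.5, so this probe set passed through the transgenic pool only.

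Agreement of this kind between probe sets was rare on these arrays. Among 760 genes with at least 4 filtered probe sets, 2 (0.263%) were higher by 1.5-fold on each. These were Igf1 and Dclk1, a doublecortin-like kinase of tuft cells. Without any filter, 1 of 1952 genes with at least 4 probe sets (0.0512%) had all of them higher by 1.5-fold, and this was Igf1. The filter can be met through the higher pool alone, and the count without it is free of that. The unfiltered count has another limit: it includes dim probe sets, whose folds are shrunk by background signal. Igf1 has no probe set below the filter on both arrays, so neither share is a like background for it. Igf1os, whose annotated span overlaps Igf1 in RefSeq, read 25.0 in the transgenic pool against 31.9 in the WT pool, below the filter on both arrays. That probe set gave a log2 difference of -0.34, against the direction of the Igf1 probe sets.

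**Figure D1:**
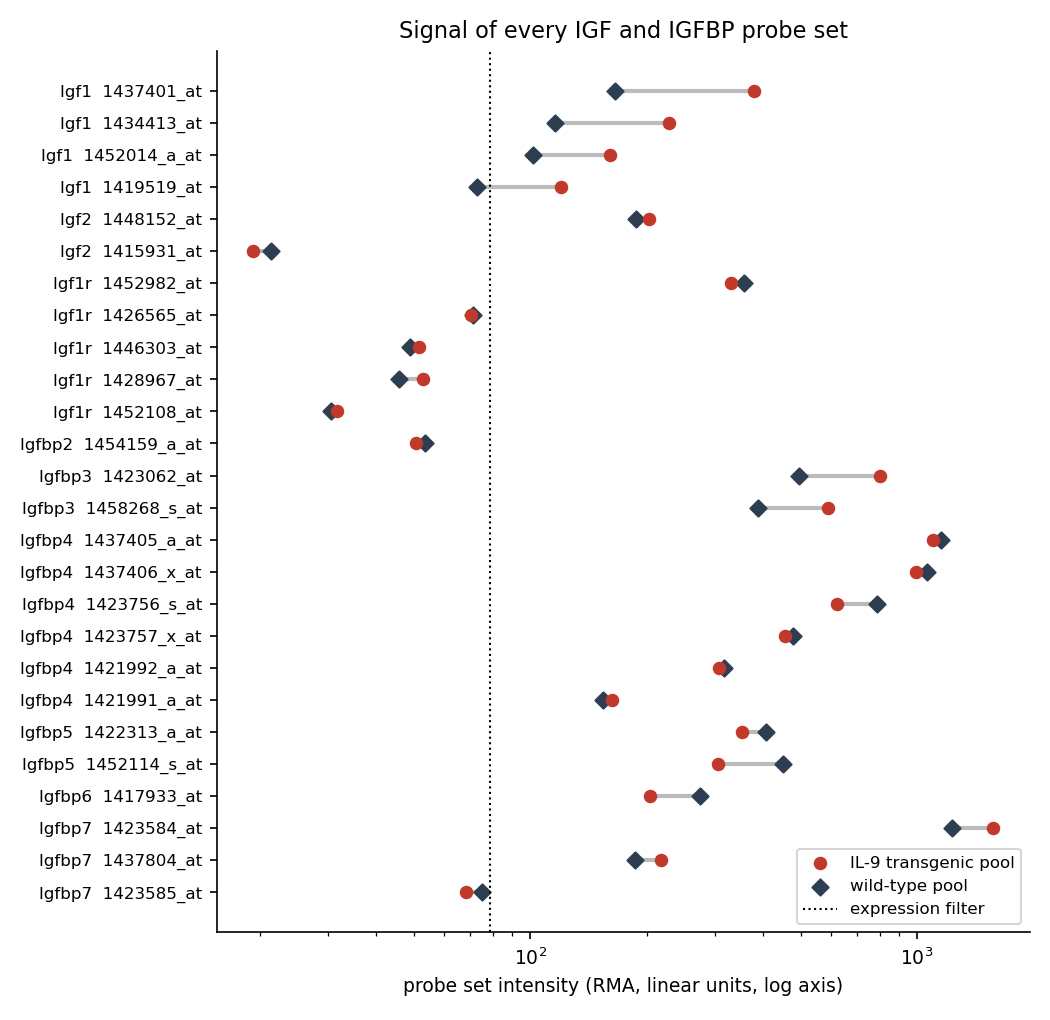
Intensity (linear units on a log axis) of each of the 26 probe sets in the IL-9 transgenic pool (circles) and the WT pool (diamonds), 1 array each, with the expression filter at 78.5 as a dotted line. The circles lie right of the diamonds in all 4 Igf1 and both Igfbp3 rows, and left of them in both Igfbp5 rows and the Igfbp6 row.

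**Figure D2:**
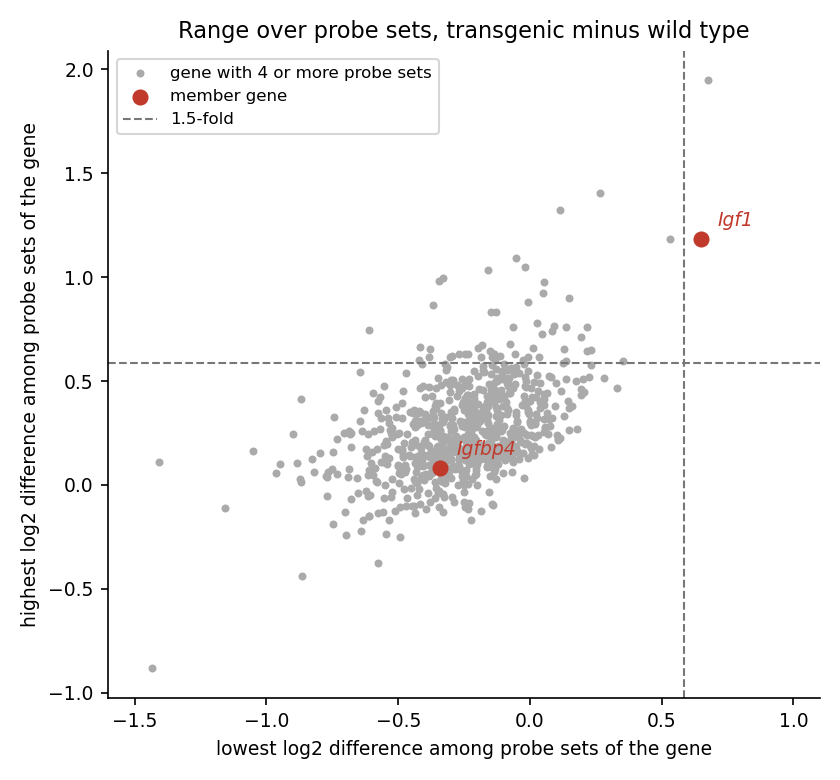
Lowest against highest log2 difference (transgenic minus WT) among the probe sets of each of 760 genes with at least 4 probe sets past the filter, 1 point a gene, with dashed lines at 1.5-fold. Igf1 is 1 of 2 genes right of the vertical line, while Igfbp4, the other member with at least 4 probe sets past the filter, spans 0.

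Igf2, the fetal growth ligand that is expressed from the paternal allele, differed by less than the spread between probe sets. Its brighter probe set, 1448152_at, read 203 in the transgenic pool against 188 in the WT pool, a log2 difference of 0.11. The other, 1415931_at, read 19.3 in the transgenic pool against 21.3 in the WT pool, below the filter. The signs of the 2 probe sets disagree, so no direction is given. Igf2os, a non-coding gene at the same locus, read 94.0 in the transgenic pool against 93.5 in the WT pool. Ins2, the insulin gene next to Igf2 on chromosome 7, read 180 in the transgenic pool against 157 in the WT pool, a log2 difference of 0.20.

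Igf1r, the receptor tyrosine kinase for both ligands, showed no difference beyond the spread between probe sets. Only 1 of its 5 probe sets passed the filter: 1452982_at read 331 in the transgenic pool against 357 in the WT pool, a log2 difference of -0.11. The 4 dim probe sets read 31.8 to 70.2 in the transgenic pool and 30.6 to 71.2 in the WT pool. Across all 5, the differences ran from -0.11 to 0.20, with 3 above 0 and 2 below. Igf2r, which clears IGF2 from the cell surface, read 470 in the transgenic pool against 490 in the WT pool on its brighter probe set, and its probe sets differed by -0.06 and -0.32. Insr, the insulin receptor that can pair with IGF1R, read 574 in the transgenic pool against 629 in the WT pool. The lowest Igf1 difference, 0.65, lay above the highest Igf1r difference, 0.20.

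**Figure D3:**
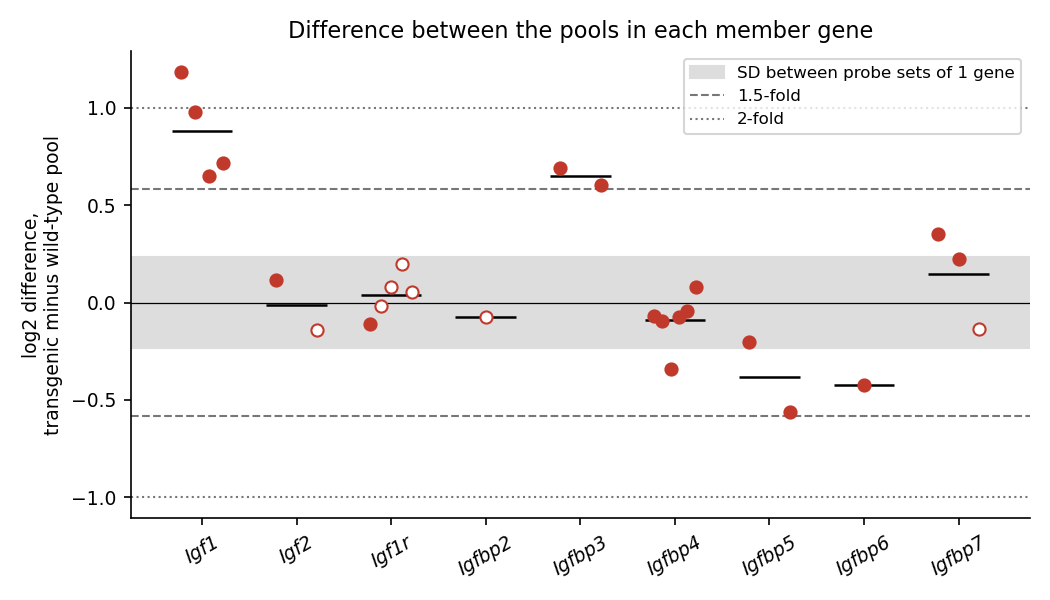
Log2 difference (transgenic minus WT pool) of every probe set by gene, filled where the probe set passed the filter and open where it did not, with the mean per gene as a bar, the SD of 0.23 between probe sets of a gene in grey and lines at 1.5-fold and 2-fold. All points of Igf1 and Igfbp3 lie above the upper 1.5-fold line, and no point lies below the lower one.

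Igfbp3, the binding protein that carries most IGF in blood and also binds it in tissues, was higher in the transgenic pool. Probe set 1423062_at read 800 in the transgenic pool against 495 in the WT pool, 1.62-fold higher. Probe set 1458268_s_at, whose probes can match more than 1 transcript, read 589 in the transgenic pool against 388 in the WT pool, 1.52-fold higher. The log2 differences of 0.69 and 0.60 lay close together and just beyond 1.5-fold. Of 9012 genes with at least 2 probe sets, 23 (0.255%) had all of them higher by 1.5-fold without a filter, and both Igf1 and Igfbp3 were among these. That share also includes genes with dim probe sets. Igfbp1, the nearest coding neighbour of Igfbp3 on chromosome 11 and a liver-made binding protein, read 17.4 in both pools. That equality carries no information about the level, since 1171 of 45101 probe sets had identical values on both arrays and this probe set lay far below the filter. No member probe set had identical values.

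Igfbp5 and Igfbp6 read lower in the transgenic pool, short of 1.5-fold. Igfbp5 encodes a binding protein that attaches to extracellular matrix and is made by smooth muscle and fibroblasts. Its probe set 1452114_s_at read 306 in the transgenic pool against 451 in the WT pool, 1.47-fold lower. Its probe set 1422313_a_at read 354 in the transgenic pool against 408 in the WT pool, 1.15-fold lower. The 2 log2 differences, -0.56 and -0.20, share a sign but differ in size. The smaller lies within the spread of 0.23 between probe sets, and 470 of all probe sets were lower by at least as much as the larger. Igfbp6, which binds IGF2 in preference to IGF1, read 205 in the transgenic pool against 275 in the WT pool on its only probe set, 1.34-fold lower. Its log2 difference of -0.42 lay inside the range that holds 95% of all probe sets. Igfbp2, the neighbour of Igfbp5 on chromosome 1, read 50.8 in the transgenic pool against 53.6 in the WT pool on its only probe set, below the filter in both.

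Igfbp4, which limits IGF action until it is cleaved by the protease PAPP-A, was nearly level between the pools. All 6 probe sets passed the filter, with readings of 163 to 1099 in the transgenic pool and 154 to 1151 in the WT pool. The mean log2 difference was -0.09 ± 0.14 (SD over n = 6 probe sets), and 5 of the 6 lay below 0. The largest difference was in 1423756_s_at, which read 620 in the transgenic pool against 786 in the WT pool, 1.27-fold lower. The other 5 differed by between -0.09 and 0.08. No Igfbp4 probe set is free of an ending that marks possible matches to several transcripts.

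Igfbp7, a low-affinity IGF binder of the vessel wall and stroma, did not pass 1.5-fold. Its brightest probe set, 1423584_at, read 1569 in the transgenic pool against 1231 in the WT pool, a log2 difference of 0.35. Probe set 1437804_at read 217 in the transgenic pool against 186 in the WT pool, a log2 difference of 0.22. The dim probe set 1423585_at read 68.4 in the transgenic pool against 75.2 in the WT pool, below the filter, with a difference of -0.14. Both probe sets past the filter read higher in the transgenic pool, the brightest by more than the spread between probe sets and the other by about as much. The dim one read lower. Within the 6 binding proteins, the mean log2 difference ran from -0.42 in Igfbp6 to 0.65 in Igfbp3. Signals of different probe sets depend on their probes, so the levels of the binding proteins are not ranked against each other.

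At their brightest probe sets, other genes of the pathway differed little, apart from 3 inhibitors of cytokine receptor signalling. Of 71 further pathway genes with a probe set of their own, 49 passed the filter when each was taken at its brightest probe set. Of these, 3 were higher by 1.5-fold (background 1.68% of 11862 genes) and 0 were lower (background 1.45%). Their median difference was -0.04, against 0.01 for all genes past the filter. The 3 were Socs1, Socs2 and Cish, all from the list for the growth hormone axis, of whose 8 genes past the filter 6 lay above 0.

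Socs2, the feedback inhibitor of the growth hormone receptor, read 1694 in the transgenic pool against 1084 in the WT pool on its brightest probe set, 1.56-fold higher. A second bright probe set read 1184 in the transgenic pool against 750 in the WT pool, 1.58-fold higher. The other 4 Socs2 probe sets lay between 0.01 and 0.31, so the 1.5-fold difference holds for the 2 brightest only. Cish, a further STAT5 target, read 599 in the transgenic pool against 388 in the WT pool, 1.54-fold higher, on its only probe set. Socs1, an inhibitor of JAK kinases, read 120 in the transgenic pool against 73.8 in the WT pool, 1.62-fold higher, with only the transgenic pool above the filter. Socs3, the inhibitor linked to STAT3, went the other way: it read 706 in the transgenic pool against 1003 in the WT pool, 1.42-fold lower, with its 3 probe sets between -0.51 and -0.19. IL-9, like growth hormone, signals through JAK kinases and STAT proteins. Whether either signal has a part in the differences of Socs1, Socs2, Cish or Socs3 was not tested.

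At their brightest probe sets, the receptor and transducers of the growth hormone axis were closer to level. Ghr, the growth hormone receptor, read 461 in the transgenic pool against 553 in the WT pool, and its 3 probe sets ran from -0.26 to 0.09. Stat5a read 132 in the transgenic pool against 105 in the WT pool, a log2 difference of 0.33, and Stat5b differed by 0.03. Jak2 differed by 0.18 on its brightest probe set, while its other probe set read 978 in the transgenic pool against 602 in the WT pool, 1.62-fold higher. The 2 Jak2 probe sets thus disagree in size. As means over probe sets, Jak2 differed by 0.44 and Stat5a by 0.38, against 0.30 for Socs2. On the same measure, Ghr differed by -0.05 and Stat5b by 0.04. The contrast with Socs2 therefore depends on the probe set taken.

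**Figure D4:**
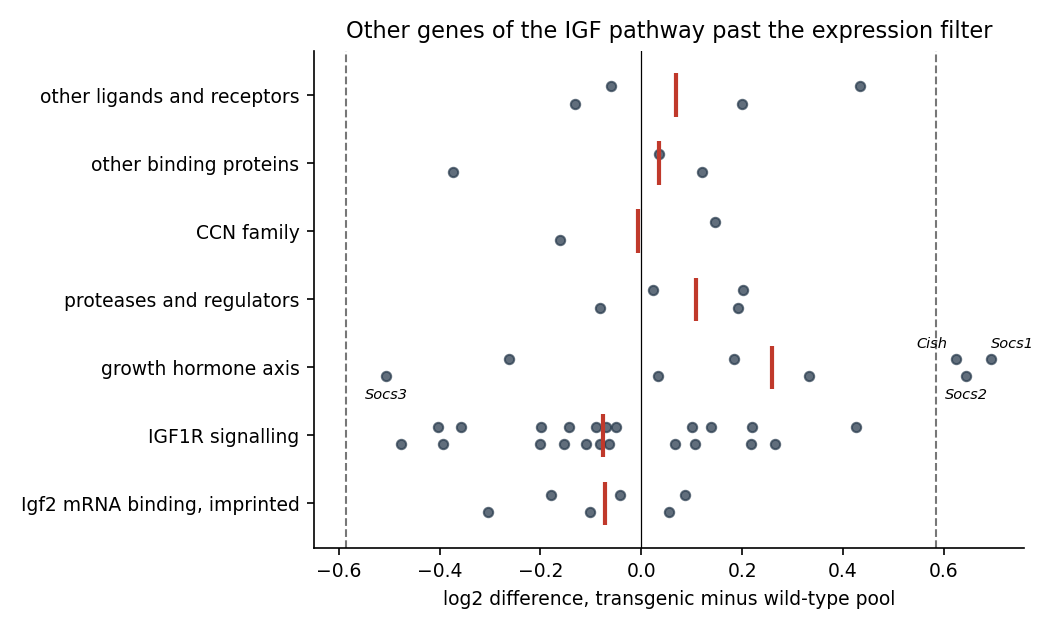
Log2 difference (transgenic minus WT pool) of the 49 further pathway genes past the filter, each at its brightest probe set, by list, with list medians as red bars and dashed lines at 1.5-fold. Socs1, Socs2 and Cish lie right of the upper line, and no gene lies left of the lower line.

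Downstream of the receptor, 22 signalling genes passed the filter, 0 of them past 1.5-fold, with 8 above 0, 14 below and a median of -0.08. The largest differences were in Sos1, a Ras activator, at -0.48 and Tsc2, a brake on mTOR, at 0.43. The adaptors Irs1 and Irs2 differed by -0.14 and 0.07. Probe sets disagreed for some of these genes: Sos1 ran from -0.48 to 0.23 over 5 probe sets, Pik3r1, a regulatory subunit of PI3K, from -0.54 to 0.30 over 4, and Akt1 from -0.21 to 0.67 over 4. Pik3ca, the catalytic subunit, differed by 0.10 on its brightest probe set, and by -0.95 on a probe set that read 53.9 in the transgenic pool against 105 in the WT pool.

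Among 4 other ligand and receptor genes past the filter, 0 passed 1.5-fold, and the largest differences were 0.43 in Insl6, a relaxin-like peptide gene, and 0.20 in Ins2. Among 3 further binding protein and related genes past the filter, Crim1, a membrane protein with an IGFBP-type domain, differed by -0.37 and Htra1, a protease with such a domain, by 0.12. The other Crim1 probe set, below the filter on both arrays, lay at -0.69, which is past 1.5-fold. The other Htra1 probe set lay at -0.03. Igfals, the liver-made subunit of the circulating IGF complex, read 72.0 in the transgenic pool against 70.7 in the WT pool, below the filter. Proteases and their regulators also stayed under 1.5-fold in all 4 genes past the filter, the largest being Stc1, a stanniocalcin, at 0.20 and Pappa, the protease that cleaves Igfbp4, at 0.19. Their other probe sets, below the filter, lay at -0.08 for Stc1 and at -0.13 and -0.07 for Pappa. In the CCN family, matrix proteins that carry an IGFBP-type domain, Ccn4 and Ccn2 differed by -0.16 and 0.15. The other Ccn4 probe set, below the filter, lay at 0.14. Among the genes for Igf2 mRNA binding and imprinted growth control, 6 passed the filter and 0 passed 1.5-fold, with -0.30 in Dlk1 and -0.18 in Cdkn1c as the largest. Dlk1 passed the filter by its WT value only, and its other probe set, below the filter, lay at 0.22.

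Markers of the cells known to make Igf1 and the binding proteins were compared in the same way. Levels are given as sums over all named markers of a list, in which the brightest probe sets weigh most, beside the median log2 difference of those past the filter. Fibroblast markers had 0 of 9 past 1.5-fold, 4 above 0 and 5 below, with a median of -0.04. They summed to 11365 in the transgenic pool against 10822 in the WT pool, led by Col3a1, which read 4375 in the transgenic pool against 3590 in the WT pool, and the largest differences were in Pi16 and Lum, both at -0.32. Pi16 and Mfap5 passed the filter by their WT values only. Macrophage markers had 0 of 7 past 1.5-fold, 5 above 0 and 2 below, with a median of 0.10. The 8 named macrophage markers summed to 4606 in the transgenic pool against 4597 in the WT pool, with C1qb at -0.37 and Cd68 at 0.23. The other C1qb probe sets, also past the filter, lay at -0.32 and 0.11, so no direction is given for C1qb. At their brightest probe sets, smooth muscle markers had 0 of 8 past 1.5-fold, 6 above 0 and 2 below, with a median of 0.12. They summed to 22097 in the transgenic pool against 20998 in the WT pool, with Des at 0.34 and Actg2 at 0.29. All 4 Synpo2 probe sets lay above 0, with 0.19 at the brightest. Another Synpo2 probe set past the filter lay at 0.61, which is past 1.5-fold. Whether the number of these cells has a part in the Igf1, Igfbp3 or Igfbp5 differences was not tested.

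Endothelial markers had 0 of 8 past 1.5-fold, 3 above 0 and 5 below, with a median of -0.08. The largest differences were Tek at -0.52 and Kdr at -0.34, while Pecam1 differed by 0.30 and Emcn by 0.16. The 9 named endothelial markers summed to 1854 in the transgenic pool against 2000 in the WT pool. Pericyte markers had 0 of 5 past 1.5-fold, 2 above 0 and 3 below, with a median of -0.01. The 6 named pericyte markers summed to 5452 in the transgenic pool against 5295 in the WT pool, of which Rgs5 alone read 4309 in the transgenic pool against 3923 in the WT pool. All 4 Rgs5 probe sets lay above 0, from 0.14 at the brightest to 0.60, the last of which is past 1.5-fold. Pdgfrb differed by -0.51 at its brightest probe set and by 0.11 at the other, and Abcc9 by -0.28 at its brightest, with its 3 probe sets, 1 of them below the filter, up to 0.19.

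Some adipocyte and liver markers read higher in the transgenic pool, as Igf1 did, a gene that is also expressed in fat and liver. Among all genes past the filter, 1.68% were higher by 1.5-fold, and their median difference was 0.01. Of 5 adipocyte markers past the filter, all 5 lay above 0 and 1 was past 1.5-fold, with sums over the 6 named markers of 1951 in the transgenic pool against 1450 in the WT pool. That 1 was Adipoq, the adipocyte hormone, which read 91.9 in the transgenic pool against 14.3 in the WT pool and passed the filter by its transgenic value only, so no fold is given. Lpl, lipoprotein lipase, differed by 0.55, while Lep, the hormone leptin, read 14.9 in the transgenic pool against 14.5 in the WT pool. Of 4 liver markers past the filter, 2 were past 1.5-fold and the other 2 were near level, with Tat at 0.08 and Ttr at -0.06 at their brightest probe sets (-0.41 at the other Ttr probe set past the filter). Sums over the 7 named liver markers were 765 in the transgenic pool against 541 in the WT pool. Apoh, a plasma glycoprotein, was 2.35-fold higher at its brightest probe set, while its other probe set read 28.1 in both pools, below the filter. Cyp2e1, a cytochrome, read 106 in the transgenic pool against 37.0 in the WT pool, passing the filter by its transgenic value only. Alb, albumin, read 75.3 in the transgenic pool against 63.6 in the WT pool, and Fgb, a fibrinogen chain, 16.4 in the transgenic pool against 18.2 in the WT pool, both genes being below the filter. The part of adipose or liver RNA in the Igf1 and Igfbp3 differences was not tested.

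The remaining lists describe the tissue around these genes, and their counts are read against the background of 1.68% of genes past the filter that were higher by 1.5-fold. In the mast cell list, 5 of 7 genes past the filter were higher by 1.5-fold, 2 of which (Fcer1a and Cpa3) passed by their transgenic values only. Mcpt2 was 7.39-fold higher, Mcpt1 6.82-fold and Kit differed by 0.71 on the log2 scale. Fcer1a read 109 in the transgenic pool against 31.0 in the WT pool, and Cpa3 read 194 in the transgenic pool against 78.3 in the WT pool. In the exocrine pancreas list, 3 of 5 were higher, Pnliprp1 by 5.42-fold, Pnliprp2 by 4.86-fold and Clps by 2.84-fold. The other genes past the filter, Cela1 and Ctrb1, differed by -0.05 and -0.07. Cpa1 read 63.8 in the transgenic pool against 63.5 in the WT pool, below the filter on both arrays. In the enteric neuron and glia list, 0 of 5 were higher by 1.5-fold and 1 was lower, against a background of 1.45% lower. Of the 5, 4 lay below 0 and 1 above, with a median of -0.35. Vip, a neuropeptide, read 693 in the transgenic pool against 1587 in the WT pool, 2.29-fold lower. At their brightest probe sets, Snap25 differed by -0.51 and Gfap by 0.24. Epithelial markers had 0 of 10 past 1.5-fold, with a median of -0.10. The largest differences were Cdx2 at -0.37 and Lct at -0.32, but the other Cdx2 probe set past the filter lay at 0.32, so no direction is given for Cdx2.

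**Figure D5:**
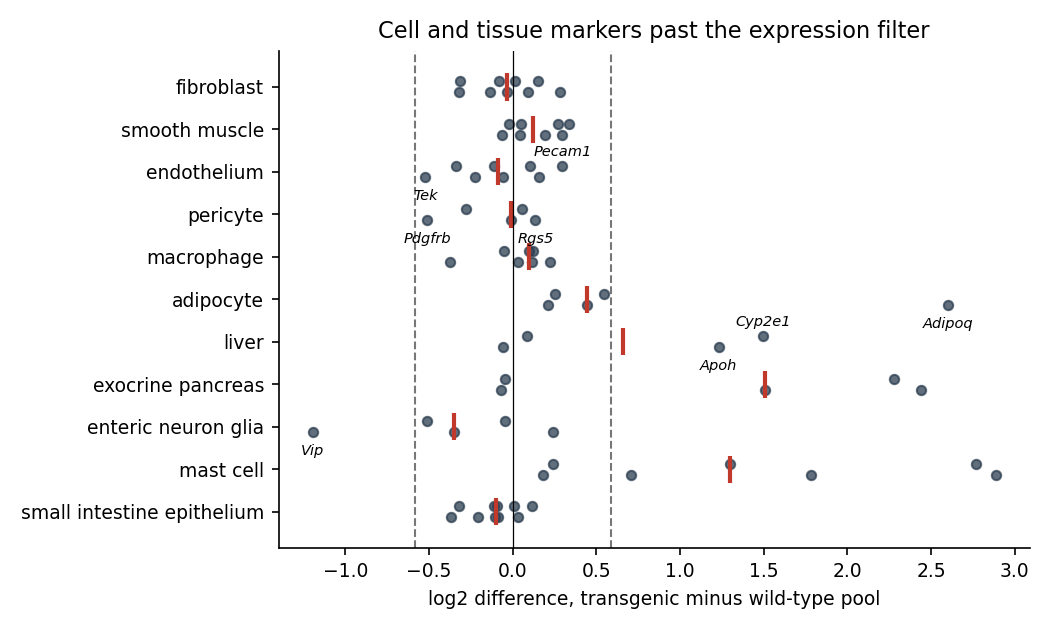
Log2 difference (transgenic minus WT pool) of cell and tissue markers past the filter, each at its brightest probe set, by list, with list medians as red bars and dashed lines at 1.5-fold. Fibroblast, smooth muscle, endothelial, pericyte, macrophage and epithelial markers lie between the lines, while some adipocyte, liver, pancreas and mast cell markers lie right of them and Vip lies left.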

How the data were processed

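RNA of 2 pools of 3 mice each was hybridised to Affymetrix mouse expression arrays, from 10 µg of total RNA per the labels' protocols. The deposited values are probe set intensities on a linear scale, and RMA (background correction, quantile normalization, summary over probes) is named, with no version, in the submitters' processing notes. The genome build was not given in the sources used here. Because RMA makes the arrays' distributions alike, a shift shared by most genes cannot be seen. Dim probe sets carry background signal that shrinks their folds, and no detection call was used.

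Gene symbols came from a dated platform annotation: 34958 probe sets had 1 symbol, 932 several and 9211 none. All 9 members matched RefSeq (GRCm38.p6) by Entrez identifier and kept their symbols. Differences are log2(intensity + 1), so folds are on that scale. The filter was a higher log2 value of at least 6.31. Member results are per probe set, and other genes are taken at the probe set with the highest mean. Named were all members and, from each other list, genes past 1.5-fold or else the 2 with the largest differences; further genes and second probe sets were picked with their values in view. The members and lists were chosen with earlier results of these data known. With 1 array per group no test was made, and the number of arrays limits the precision. The computation, in Python 3.11.15 with pandas 2.3.3, was tested on simulated data at the 2-fold threshold only, so the 1.5-fold counts were not covered. Alternatives were renewed quantile normalization, pseudocounts of 0 and 16, other filters, leaving out probe sets with several possible targets, and the mean over probe sets.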

Additional observations from a re-analysis of the deposited data

How the results depend on the processing

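Igf1 and Igfbp3 stayed higher, and no member probe set was lower by 1.5-fold, under each alternative run. The count past 1.5-fold was 6 after renewed quantile normalization, with a pseudocount of 0 and with filtered probe sets only. It was 4 with a pseudocount of 16, which took 1 Igf1 and 1 Igfbp3 probe set to 0.58, just under the threshold, and 4 without probe sets whose IDs end in _s_at, _x_at or _a_at, which leaves none for Igfbp2, Igfbp4 and Igfbp5. The count past 2-fold was 1 throughout. The median over members ran to 0.11. As the mean over probe sets, Igf1 was 0.88 instead of 1.18 at its brightest. Over the alternatives, Igfbp3 ran from 0.65 to 0.69, Igfbp5 from -0.38 to -0.20, Igfbp6 from -0.43 to -0.40 and Igfbp7 from 0.15 to 0.35. Igf2 (-0.01 to 0.11) and Igf1r (-0.12 to 0.04) had no stable sign. Of the 3 pathway genes, Socs2 dropped out as the mean over probe sets (0.30), and Socs1 without its only probe set, which ends in _a_at. No paired analysis was possible because each group has 1 array.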

Other observations

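Probe sets of the non-coding genes at imprinted IGF loci were near level between the pools. Airn, the antisense RNA at the Igf2r locus, read 188 in the transgenic pool against 180 in the WT pool on its brightest probe set, and its 5 probe sets ran from -0.17 to 0.18. A probe set shared by Airn and Igf2r read 66.0 in the transgenic pool against 62.6 in the WT pool. These genes were chosen after their values were seen.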
